A study of Mus musculus with 7 samples.

Results

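Forkhead genes encode transcription factors that bind DNA through a winged-helix domain. The 35 forkhead genes described here were taken from a given list of mouse Fox symbols, and each gene was read from its brightest named probe on expression arrays of the embryonic mouse forebrain. Of the 35 genes 33 had a named probe, out of 17178 named genes on the arrays, 27 were well above background on at least 1 array, and 25 could be tested. The groups were 3 arrays labelled Otx2 cKO, from embryos that carried a floxed Otx2 allele (Otx2flox) and the Cre driver RxCre, and 4 control arrays, from embryos labelled only as control, whose alleles the labels do not state. All 7 embryos were female CD-1 mice at E12.5 (E for embryonic day), and each array held the microdissected ganglionic eminences and septum of 1 embryo. Per the series' design text, RxCre recombines across the forebrain but spares a caudal dorsomedial territory where the cortical hem and choroid plexus form. The question addressed is how gene expression in this tissue differs when Otx2, a homeobox gene of the anterior brain, is recombined.

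The embryos came from 4 litters and the arrays lay on 2 slides, and p-values measure the spread between embryos. Litter 2 gave Otx2 cKO 1, Otx2 cKO 3, control 2 and control 3, while Otx2 cKO 2, control 1 and control 4 were each alone in a litter. Slide 1 held Otx2 cKO 1, control 1 and control 2, and slide 2 held the rest. Values are log2 signals relative to the 75th percentile of the array, and differences are labelled Otx2 cKO minus control with limma's moderated SE. A gene was called when its Benjamini-Hochberg adjusted p was under 0.05 over the 13339 genes tested. The Otx2 probe read 1.78, 2.34 and 1.77 on the arrays labelled Otx2 cKO, against 0.19, 0.55, 0.48 and 0.56 on control arrays. Its signal was therefore higher under the knockout label, by 1.52 ± 0.17 (adjusted p = 0.0356 by limma), and the sources used here do not give the exon in which the probe lies. Every direction below is that of the arrays as labelled. Of 16 genes that mark subpallial progenitors and neurons, among them Dlx2, Nkx2-1 and Sox2, 16 were well above background on at least 1 array. Their summed linear level was 283 to 316 on the arrays labelled Otx2 cKO and 310 to 346 on control arrays, and 1 of the 15 tested, Lhx6, was called lower, with a difference of -1.18 ± 0.15 (adjusted p = 0.0491 by limma). Of these 15 genes 11 had negative differences, with a median of -0.096, and at an unadjusted p under 0.05 5 were lower, where 7.1% of all genes were, and 0 were higher. The other 4 lower genes were Gad1 and Gad2, which make the transmitter GABA, and the neuronal cytoskeleton genes Tubb3 and Stmn2. Their differences were -0.67 ± 0.13 for Gad1, -0.34 ± 0.078 for Gad2, -0.36 ± 0.091 for Tubb3 and -0.27 ± 0.099 for Stmn2, with adjusted p of 0.171 to 0.403 by limma. Otx2 was no longer called without any 1 of the 7 arrays, with a difference of 1.33 to 1.62 and an adjusted p of 0.0559 to 0.156 by limma. Lhx6 was called without Otx2 cKO 1 and not without any other array, with a difference of -1.33 to -1.03.

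The forkhead family divides by tissue, and it was split that way here. Foxc1, Foxc2, Foxd1 and Foxf2 are known from mesenchyme, and at this stage such genes mark the meninges, the pericytes and the vessels that cover and enter the brain. The class grouped with them also held Foxf1, known from gut and lung mesenchyme, Foxd3, from neural crest, and Foxl2, from the ovary. Most Foxo genes, the Foxk genes, Foxn2 and Foxn3 act in many cell types. FOXO proteins are kept out of the nucleus by insulin and AKT signalling, and FOXM1 drives genes of mitosis in dividing cells. Within the nervous system, Foxa1, Foxa2, Foxb1, Foxj1 and Foxn4 are restricted to certain parts or cell types. The classes held 10 meningeal, mesenchymal and vascular genes, 12 broadly expressed genes, 5 regional neural genes and 8 genes known mainly from other tissues.

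Promoter sequences, from 250 bases before to 50 bases after the annotated start, came from RefSeq on the build GRCm38.p6. The table held 24 sequences for 21 of the forkhead genes. Those shown belong to the 3 meningeal genes with a promoter there whose signals moved together between arrays, to Foxo1, and to Foxn3. They are Foxc1 (chr13:31806396-31806695, plus strand), Foxf2 (chr13:31625566-31625865, plus strand), Foxd1 (chr13:98353995-98354294, plus strand), Foxo1 (chr3:52268087-52268386, plus strand) and Foxn3 (chr12:99450025-99450324, minus strand). Each is written 5′ to 3′ on the gene's strand, and capitals mark the CCAAT motif (CCAAT or its reverse complement ATTGG), or, in Foxn3, the motif TAATCC that OTX proteins are known to bind.
Foxc1: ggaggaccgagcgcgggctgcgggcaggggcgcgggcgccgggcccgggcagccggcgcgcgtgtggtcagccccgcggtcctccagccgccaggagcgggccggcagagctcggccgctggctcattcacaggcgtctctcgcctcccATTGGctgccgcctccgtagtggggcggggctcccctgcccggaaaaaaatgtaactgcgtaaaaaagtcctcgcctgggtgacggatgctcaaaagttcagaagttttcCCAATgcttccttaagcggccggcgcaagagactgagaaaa
Foxf2: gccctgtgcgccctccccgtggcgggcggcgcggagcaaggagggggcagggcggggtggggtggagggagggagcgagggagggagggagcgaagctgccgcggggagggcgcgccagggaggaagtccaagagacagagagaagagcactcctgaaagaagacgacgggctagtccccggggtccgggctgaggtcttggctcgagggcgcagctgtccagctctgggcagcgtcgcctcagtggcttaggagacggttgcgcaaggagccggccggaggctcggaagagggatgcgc
Foxd1: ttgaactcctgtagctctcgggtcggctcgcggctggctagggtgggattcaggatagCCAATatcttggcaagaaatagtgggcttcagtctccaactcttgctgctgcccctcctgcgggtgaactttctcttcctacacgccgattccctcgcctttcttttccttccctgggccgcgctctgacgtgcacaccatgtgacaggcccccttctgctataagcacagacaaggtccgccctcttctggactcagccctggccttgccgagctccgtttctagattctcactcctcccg
Foxo1: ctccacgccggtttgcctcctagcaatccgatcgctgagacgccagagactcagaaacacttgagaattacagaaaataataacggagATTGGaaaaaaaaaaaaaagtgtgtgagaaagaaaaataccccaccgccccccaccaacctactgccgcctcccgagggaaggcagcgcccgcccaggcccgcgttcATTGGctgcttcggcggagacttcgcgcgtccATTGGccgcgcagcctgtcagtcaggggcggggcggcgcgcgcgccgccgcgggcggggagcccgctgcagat
Foxn3: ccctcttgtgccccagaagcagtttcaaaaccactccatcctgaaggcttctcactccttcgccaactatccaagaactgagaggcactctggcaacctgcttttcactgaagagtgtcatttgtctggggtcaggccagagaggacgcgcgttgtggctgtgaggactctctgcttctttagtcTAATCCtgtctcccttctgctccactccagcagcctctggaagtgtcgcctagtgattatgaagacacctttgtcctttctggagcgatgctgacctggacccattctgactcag

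Among the meningeal genes shown, Foxc1 held 2 CCAAT motifs, Foxd1 held 1 and Foxf2 held 0. Foxo1 held 3. The motif TAATCC, searched on both strands with its reverse complement GGATTA, was in 2 of the 24 forkhead promoters (8.33%), those of Foxn3 and Foxp3, and in 7.06% of all 32851 promoters in the table. A forkhead motif, TGTTTAC or GTAAACA, was in 1 of the 24 (4.17%), that of Foxa1, against 3.65% of all promoters. CCAAT was in 10 of the 24 (41.7%), against 37.4% of all promoters, and TATAAA on either strand in 2 of the 24 (8.33%), against 13.6%. In Foxp3 the TAATCC and CCAAT matches overlap. The forkhead promoters had a median GC content of 63.5% and a median of 24 CpG sites, against 52.7% and 7 over all promoters. A match is a string of letters and not evidence of binding.

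No forkhead gene was called. Over all genes tested 28 were called (0.21%), 11 higher and 17 lower. The 25 forkhead genes had 15 positive and 10 negative differences, with a median of 0.05, and the median over all genes tested was 0.01. At an unadjusted p under 0.05, 0 forkhead genes were higher, where 3.94% of all genes were, and 1 was lower, Foxj2, where 7.1% of all genes were. The groups did not overlap for 1 higher gene, Foxo1, against 5.14% of all genes, and for 1 lower gene, Foxj2, against 7.65% of all genes. For 25 genes, none of these counts is above the share over all genes.

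**Figure D1:**
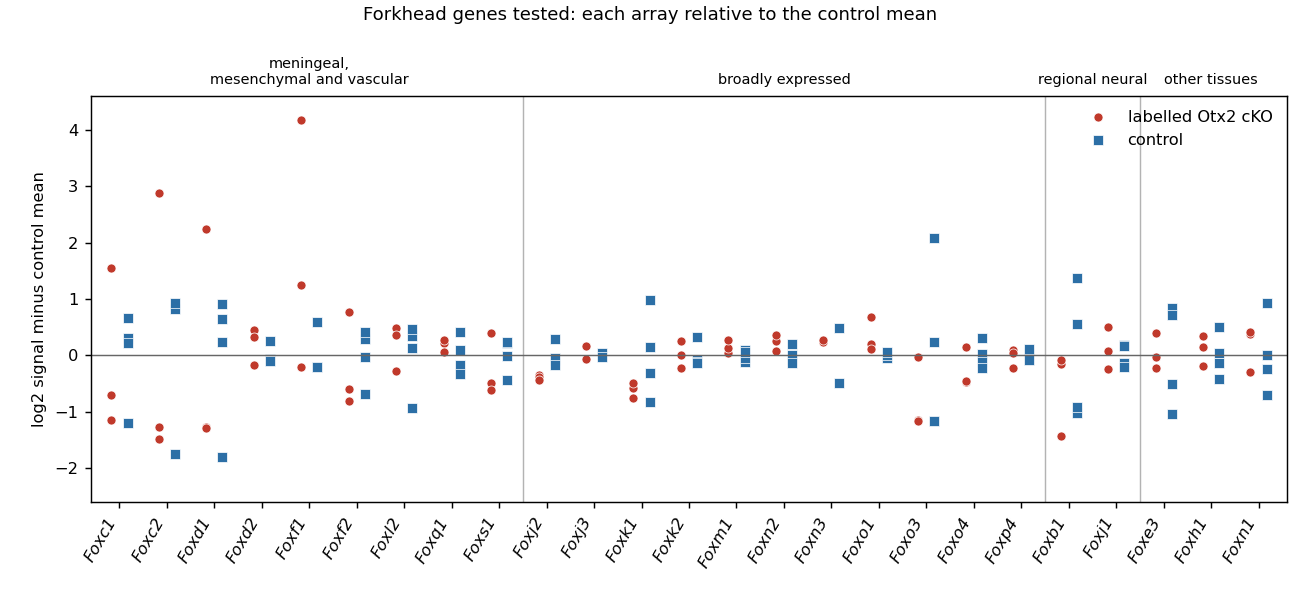
Each point is 1 array, and the vertical axis is the log2 signal of a forkhead gene minus its mean over the control arrays, with arrays labelled Otx2 cKO in red and control arrays in blue. The 25 tested genes are ordered by class. The median range over arrays was 1.58 in the meningeal, mesenchymal and vascular class and 0.73 in the broadly expressed class. It was 1.77 over the 2 tested regional neural genes and 1.63 over the 3 tested genes of other tissues.

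Several meningeal and mesenchymal forkhead genes varied widely between embryos of the same label, and none of the class was called between the labels. Foxd2 and Foxq1 varied less: 37.4% and 28.2% of the genes well above background on every array had a wider range. Foxc1, a factor required for the growth of the meninges, read -1.98, 0.72 and -1.53 on the arrays labelled Otx2 cKO, against -0.54, -2.03, -0.62 and -0.17 on control arrays. Otx2 cKO 2 was highest, and Otx2 cKO 1, Otx2 cKO 3 and control 2 were lowest, so the groups overlapped. The difference was -0.09 ± 0.73 (adjusted p = 0.977 by limma). Slide 1 alone gave -0.69, slide 2 alone -0.01 and litter 2 alone -0.43. The highest array was 6.70-fold above the lowest, and 1.08% of the 11656 genes well above background on every array had a wider range.

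Foxc2, a relative of Foxc1 that acts in mesenchyme and in lymphatic vessels, read -4.88, -0.53 and -4.67 on the arrays labelled Otx2 cKO. On control 1, control 2 and control 4 it read -2.59, -5.15 and -2.48. The spot of control 3 was marked as an outlier by the scanner software and was left out. With such spots kept it would read 2.54, above every other array. The groups overlapped, with a difference of 0.04 ± 1.38 over 6 arrays (adjusted p = 0.995 by limma). The range over those arrays was 24.4-fold, and 0.112% of genes had a wider one. Leaving out single arrays moved the difference between -1.38 (without Otx2 cKO 2) and 0.80 (without Otx2 cKO 1), and with marked spots kept it was -1.50.

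Foxd1, known from stromal mesenchyme and from ventral forebrain neuroepithelium, read -2.77, 0.73 and -2.79 on the arrays labelled Otx2 cKO, against -1.26, -3.31, -0.60 and -0.86 on control arrays. The order of the arrays was again high in Otx2 cKO 2 and low in Otx2 cKO 1, Otx2 cKO 3 and control 2. The difference was -0.10 ± 1.04 (adjusted p = 0.983 by limma), and the range was 16.4-fold, with a wider one in 0.189% of genes. Its second probe read -4.01, -0.77 and -3.84 on the arrays labelled Otx2 cKO, against -2.36, -3.57, -2.08 and -1.97 on control arrays, with the same array at the top.

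Foxf2, a gene of brain pericytes, read -1.06, 0.30 and -1.28 on the arrays labelled Otx2 cKO, against -0.48, -1.14, -0.18 and -0.05 on control arrays, with a difference of -0.21 ± 0.43 (adjusted p = 0.894 by limma). Foxs1, expressed in pericytes and in cells of the neural crest lineage, read -2.13, -1.24 and -2.24 on the arrays labelled Otx2 cKO, against -1.65, -2.07, -1.41 and -1.40 on control arrays, with a difference of -0.23 ± 0.28 (adjusted p = 0.802 by limma). Both followed the same order of arrays over smaller ranges, 2.98-fold for Foxf2 and 2.00-fold for Foxs1. Wider ranges were found in 6.26% of genes for Foxf2 and in 17.3% for Foxs1.

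In these 5 of the 9 tested genes of the class, the 3 lowest arrays were Otx2 cKO 1, Otx2 cKO 3 and control 2, and the highest was Otx2 cKO 2. Of the 11656 genes well above background on every array, 8.1% had the same 3 lowest arrays and 5.25% also had the same highest. The same 3 arrays were lowest in 0 of 11 broadly expressed forkhead genes and in 0 of 15 tested subpallial markers. They were lowest in 15 of 19 meningeal and mesenchymal markers, 14 of 18 endothelial markers, 8 of 11 microglia and macrophage markers and 6 of 10 pericyte and smooth muscle markers. The order was read from the values, so these counts describe it and carry no test.

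**Figure D2:**
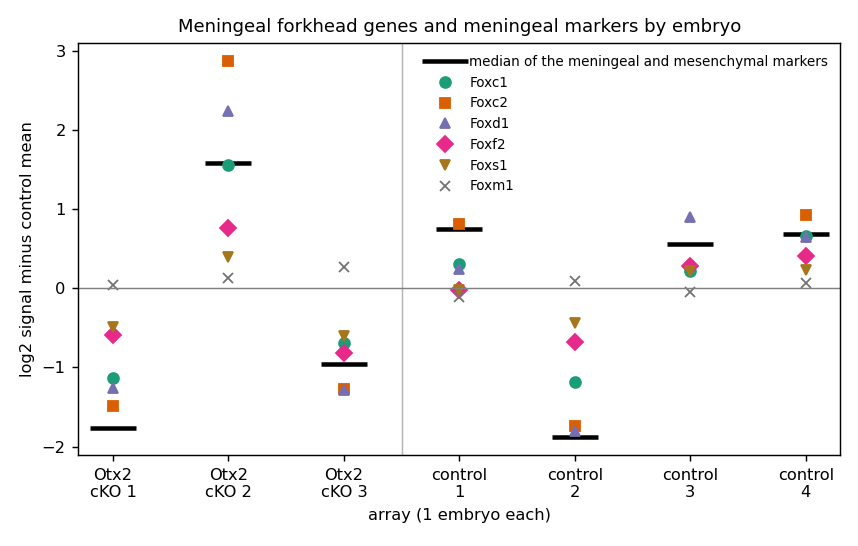
The vertical axis is the log2 signal minus the control mean for 5 meningeal forkhead genes, for Foxm1 as a broadly expressed gene, and, as a black bar, for the median of 19 meningeal and mesenchymal markers, with 1 array per position on the horizontal axis. The marker median lay at -1.76, 1.58 and -0.95 on Otx2 cKO 1 to 3 and at 0.76, -1.87, 0.56 and 0.69 on control 1 to 4. The 5 genes shown are those of the class that shared the array order of the markers. Foxd2, Foxf1, Foxl2 and Foxq1, which did not share it, are not shown. Foxm1 stays near 0 and had the smallest SE of the tested forkhead genes. The broadly expressed Foxk1 and Foxo3 ranged over 1.80 and 3.23 log2 units.

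Meningeal markers moved with these genes. Of 20 meningeal and mesenchymal markers, such as the collagens Col1a1 and Col3a1 and the proteoglycans Dcn and Lum, 19 had a probe, and 19 were well above background on at least 1 array, with none of the defining markers at the floor on every array. Their summed linear level ran from 3.80 to 51.0 on the arrays labelled Otx2 cKO and from 3.76 to 28.2 on control arrays. Between the groups 0 of 19 were called, with 4 positive and 15 negative differences and a median of -0.49. At an unadjusted p under 0.05, 1 was lower, where 7.1% of all genes were. It was Ptgds, a prostaglandin synthase of the meninges (-0.97 ± 0.37, adjusted p = 0.416 by limma). In bulk tissue fewer cells of a type and less RNA per cell cannot be told apart. With the marker median of each array as a covariate, an alternative added after seeing the data, the SE of Foxc1 was 0.17 in place of 0.73, that of Foxd1 was 0.31 in place of 1.04, and that of Foxc2 was 0.34 in place of 1.38. The differences were then 0.21 for Foxc1, 0.32 for Foxd1 and 0.33 for Foxc2, all positive and none called. These genes were already known to share the array order of the markers. Their smaller SE follows from that and is no test. Among broadly expressed genes, Foxm1 had an SE of 0.098 with the covariate, against 0.093 without it. The latter was already the smallest SE among the 25 tested forkhead genes.

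The summed levels of the endothelial and pericyte lists covered narrower ranges between arrays. The endothelial markers, 19 of 19 well above background on at least 1 array, summed to 23.6 to 39.2 on the arrays labelled Otx2 cKO and 22.4 to 34.3 on control arrays, and 0 of 18 tested were called (median difference -0.14). The closest to the threshold was Robo4, a vessel guidance receptor (-0.42 ± 0.18, adjusted p = 0.461 by limma). The pericyte and smooth muscle markers, 11 of 12 well above background, summed to 18.7 to 25.3 on the arrays labelled Otx2 cKO and 20.1 to 23.7 on control arrays, and 0 of 10 tested were called (median difference -0.40). The microglia and macrophage markers, 13 of 14 well above background, summed to 2.26 to 4.45 on the arrays labelled Otx2 cKO and 2.34 to 3.48 on control arrays. In the pericyte list Higd1b differed by -1.32 ± 0.53 (adjusted p = 0.440 by limma).

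Foxq1, an endothelial and hair follicle factor, did not follow that order. It read -1.87, -1.82 and -2.04 on the arrays labelled Otx2 cKO, against -2.26, -2.42, -1.67 and -1.999 on control arrays, with a difference of 0.18 ± 0.18 (adjusted p = 0.762 by limma). Foxq1, Foxf2 and Foxc1 are consecutive coding genes on chromosome 13 in the GRCm38.p6 gene table. The neighbours Foxf2 and Foxc1 were lowest on Otx2 cKO 1, Otx2 cKO 3 and control 2, while Foxq1 was lowest on control 2, control 1 and Otx2 cKO 3.

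Foxf1, a gene of gut and lung mesenchyme, was well above background on 3 arrays, Otx2 cKO 1, Otx2 cKO 2 and control 4. It read -3.08, -6.01 and -7.45 on the arrays labelled Otx2 cKO, against -7.45, -7.45, -7.45 and -6.64 on control arrays, where -7.45 is the floor set for dim probes. A single array, Otx2 cKO 1, carried most of the difference of 1.74 ± 0.94 (adjusted p = 0.557 by limma). Without it the difference was 0.52. On that array Foxc1, Foxc2 and the meningeal markers were among the lowest. Foxf1 and Foxc2 lie on chromosome 8 with 1 coding gene, Mthfsd, between them.

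The remaining genes of the class were Foxd2, Foxl2 and Foxd3, and none was called. Foxd2, known from paraxial mesenchyme, read -5.65, -5.03 and -5.16 on the arrays labelled Otx2 cKO, against -5.55, -5.58, -5.22 and -5.58 on control arrays (0.20 ± 0.17, adjusted p = 0.713 by limma). Foxl2, the ovarian granulosa cell factor, read -6.15, -5.39 and -5.50 on the arrays labelled Otx2 cKO, against -6.81, -5.54, -5.41 and -5.74 on control arrays (0.19 ± 0.37, adjusted p = 0.887 by limma). The groups overlapped for both. Foxd3, a factor of neural crest progenitors, read -7.45, -6.84 and -7.45 on the arrays labelled Otx2 cKO, against -7.34, -7.45, -6.99 and -7.19 on control arrays. It was well above background on 1 array of each label and was not tested. Of 8 neural crest and glial markers 6 were well above background on at least 1 array, and 4 were tested. Their summed level was 1.34 to 2.43 on the arrays labelled Otx2 cKO and 1.61 to 2.13 on control arrays and 0 were called. Over the 9 tested genes of the class 5 differences were positive and 4 negative, with a median of 0.04.

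Among broadly expressed genes, Foxo1, the insulin-regulated factor that also acts in endothelium, was the only tested forkhead gene that read higher on every array labelled Otx2 cKO than on any control array. It read 1.38, 1.85 and 1.28 on the arrays labelled Otx2 cKO, against 1.16, 1.12, 1.18 and 1.22 on control arrays. The control arrays lay close together and Otx2 cKO 2 stood above the other 2 arrays of its label. The difference was 0.33 ± 0.14 (adjusted p = 0.454 by limma), a 1.26-fold higher level that was not called. A second probe read 0.25, 0.99 and 0.27 on the arrays labelled Otx2 cKO, against -0.03, -0.19, 0.16 and 0.16 on control arrays, and its groups also did not overlap. Within slide 1 the difference was 0.24, within slide 2 it was 0.37, and within litter 2 it was 0.18. It was positive under all 23 alternatives, from 0.16 without Otx2 cKO 2, where the meningeal and endothelial marker medians were also highest, to 0.45 without Otx2 cKO 3. With the meningeal marker median as a covariate it was 0.38 ± 0.11 (adjusted p = 0.285 by limma).

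Foxo6, the FOXO gene most restricted to brain, could not be tested, because the scanner software marked its only spot as an outlier on 6 of the 7 arrays. The spot was well above background on all 7. With the marked spots kept, it read 3.50, 3.08 and 2.85 on the arrays labelled Otx2 cKO, against 4.02, 3.66, 3.76 and 3.62 on control arrays. Every array labelled Otx2 cKO was below every control array, with means of 3.14 ± 0.33 (SD, n = 3) on the arrays labelled Otx2 cKO and 3.76 ± 0.18 (SD, n = 4) on control arrays. In the fit that keeps marked spots the difference was -0.62 ± 0.17, and it was not called (adjusted p = 0.303 by limma). Foxo4 read -6.19, -6.18 and -5.58 on the arrays labelled Otx2 cKO, against -5.71, -5.85, -5.96 and -5.41 on control arrays (-0.25 ± 0.20, adjusted p = 0.680 by limma). Foxo3, a gene of stem cell quiescence, was well above background on 3 arrays and read -7.44, -6.31 and -7.45 on the arrays labelled Otx2 cKO, against -4.22, -7.45, -7.45 and -6.06 on control arrays (-0.77 ± 0.82, adjusted p = 0.774 by limma).

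**Figure D3:**
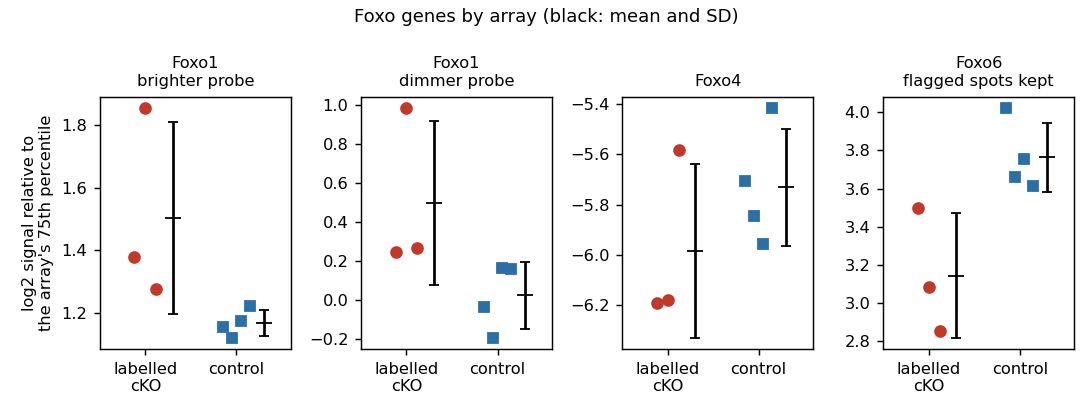
Each panel shows 1 probe, with the log2 signal relative to the 75th percentile of the array on the vertical axis, arrays labelled Otx2 cKO in red on the left and control arrays in blue on the right, and black bars for the mean and SD of each group (n = 3 and n = 4). The 2 Foxo1 probes do not overlap between the groups and are higher under the Otx2 cKO label, the Foxo6 spots with marked spots kept do not overlap and are lower, and Foxo4 overlaps. Each panel has its own scale.

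The genes around FOXO signalling showed no call. Of 18 tested genes of insulin and PI3K-AKT signalling 0 were called, and the median difference was -0.01. At an unadjusted p under 0.05, 1 was higher and 1 was lower, where 3.94% and 7.1% of all genes were. Akt1, the kinase that phosphorylates FOXO proteins, averaged 5.11 ± 0.042 on the arrays labelled Otx2 cKO and 5.36 ± 0.083 on control arrays (-0.25 ± 0.077, adjusted p = 0.323 by limma). Irs1, an insulin receptor substrate, differed by 0.16 ± 0.065 (adjusted p = 0.432 by limma), and Sirt1, a deacetylase of FOXO proteins, differed by 0.25 ± 0.12 (adjusted p = 0.510 by limma). Of 23 known FOXO target genes 0 were called, with a median of 0.05. At an unadjusted p under 0.05, 1 was higher and 5 were lower, where 3.94% and 7.1% of all genes were. The 3 smallest p-values there belonged to lower genes: the coactivator-binding gene Cited2 (-0.38 ± 0.10, adjusted p = 0.282), the pyruvate dehydrogenase kinase Pdk4 (-0.33 ± 0.087, adjusted p = 0.283) and the stress gene Sesn1 (-0.29 ± 0.092, adjusted p = 0.344), all by limma.

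Foxj2, a broadly expressed factor, had the smallest unadjusted p (0.0167) among the 25 tested genes. In the fit that keeps marked spots, the untested Foxo6 had one of 0.00916. Foxj2 read -0.07, -0.10 and -0.17 on the arrays labelled Otx2 cKO, against 0.57, 0.23, 0.19 and 0.10 on control arrays. The 3 arrays labelled Otx2 cKO lay close together and below every control array. The difference was -0.39 ± 0.12, or 1.31-fold lower, and did not pass the threshold (adjusted p = 0.340 by limma). Slide 1 alone gave -0.47, slide 2 alone -0.28 and litter 2 alone -0.33. The difference was negative under all 23 alternatives, between -0.48 and -0.28.

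Foxm1, the activator of mitotic genes, read 1.60, 1.68 and 1.83 on the arrays labelled Otx2 cKO, against 1.45, 1.65, 1.51 and 1.63 on control arrays. The groups overlapped, with a difference of 0.15 ± 0.093 (adjusted p = 0.624 by limma). Of 18 tested mitotic genes known as FOXM1 targets 16 had positive differences, with a median of 0.17, and 0 were called. At an unadjusted p under 0.05, 2 were higher, where 3.94% of all genes were. Cdc25c, a phosphatase that triggers mitosis, averaged -0.23 ± 0.043 on the arrays labelled Otx2 cKO and -0.56 ± 0.15 on control arrays (0.33 ± 0.10, adjusted p = 0.319 by limma). The mitotic cyclin Ccnb2 differed by 0.25 ± 0.089 (adjusted p = 0.377 by limma), and Mki67, which marks dividing cells, differed by 0.25 ± 0.13 (adjusted p = 0.535 by limma).

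Foxk2, a repressor of autophagy genes together with Foxk1, read 3.09, 2.62 and 2.85 on the arrays labelled Otx2 cKO, against 3.17, 2.75, 2.73 and 2.70 on control arrays. The first array of each group was high, and the groups overlapped (0.02 ± 0.16, adjusted p = 0.982 by limma). Foxj3 read 2.17 and 2.40 on Otx2 cKO 1 and 2, against 2.22, 2.27 and 2.22 on control 1, 2 and 4, with the spots of the other 2 arrays marked and left out (0.05 ± 0.11, adjusted p = 0.904 by limma). Foxn3, a transcriptional repressor whose promoter is shown with TAATCC in capitals, read 1.79 and 1.83 on Otx2 cKO 1 and 3, against 1.07 and 2.04 on control 1 and 2, with 3 marked spots left out (0.25 ± 0.36, adjusted p = 0.848 by limma). Its second probe, measured on all 7 arrays, differed by 0.14. The groups overlapped for Foxn3.

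The others of the class were Foxn2, Foxk1 and Foxp4. Foxn2 read -1.21, -1.10 and -1.38 on the arrays labelled Otx2 cKO, against -1.26, -1.46, -1.54 and -1.59 on control arrays (0.24 ± 0.11, adjusted p = 0.506 by limma), overlapping at 1 control array. Foxk1 differed by -0.60 ± 0.40 on its brightest probe (adjusted p = 0.630 by limma), while its other 2 probes differed by 0.07 and 0.06, so the probes disagreed in direction. Foxp4, expressed in neural progenitors, differed by -0.03 ± 0.11 (adjusted p = 0.953 by limma). Over the 13 tested broadly expressed and regional neural genes 7 differences were positive and 6 negative, with a median of 0.02. Centred on the median of each array instead of its 75th percentile, that median was -0.081, and the median of all genes was -0.080.

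**Figure D4:**
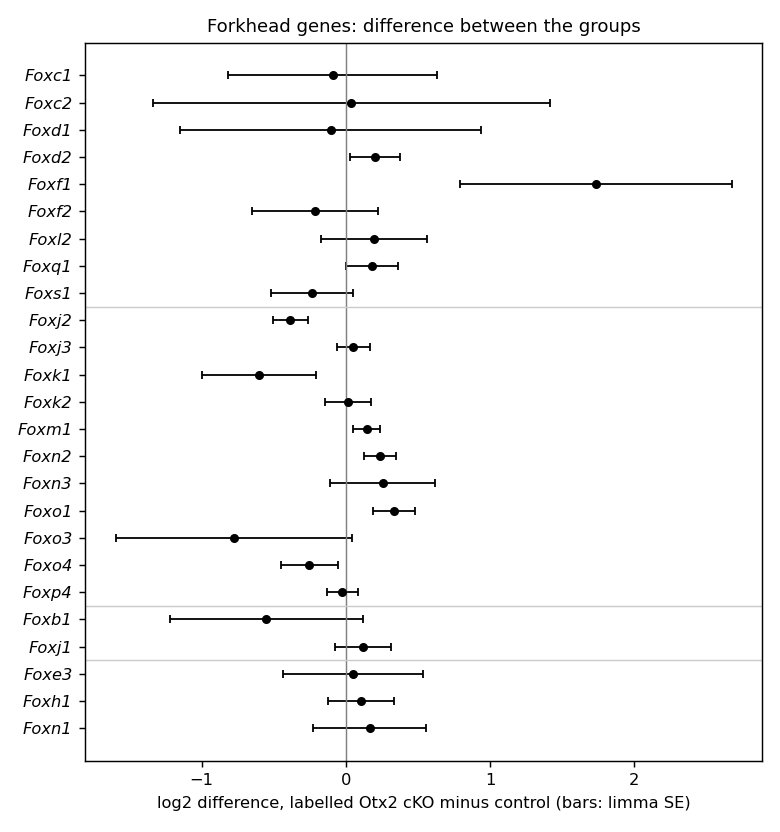
The horizontal axis is the log2 difference, labelled Otx2 cKO minus control, of the 25 tested forkhead genes, with bars for limma's SE. The widest bars are those of Foxc2 (1.38), Foxd1 (1.04), Foxf1 (0.94), Foxo3 (0.82), Foxc1 (0.73) and Foxb1 (0.67). Those of Foxd2 (0.17) and Foxq1 (0.18), also of the meningeal, mesenchymal and vascular class, are narrower. The smallest is that of Foxm1, at 0.093.

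Of the 5 regional neural genes 2, Foxb1 and Foxj1, could be tested, and neither was called. Foxa1 and Foxa2, pioneer factors of the floor plate and of midbrain dopamine neurons, were not well above background on any of the 7 arrays. Foxn4, a factor of retinal and spinal interneuron progenitors, had no named probe. Foxb1 marks the mammillary hypothalamus and the thalamus. It was well above background on 3 of 3 arrays labelled Otx2 cKO and on 2 of 4 control arrays. It read -6.17, -7.45 and -6.10 on the arrays labelled Otx2 cKO, against -4.64, -7.04, -5.46 and -6.93 on control arrays (-0.55 ± 0.67, adjusted p = 0.802 by limma). The value of Otx2 cKO 2 is the common floor, although the spot was well above background. The lowest such level on that array was -8.06. Foxj1, the regulator of motile cilia, read -1.75, -2.18 and -2.50 on the arrays labelled Otx2 cKO, against -2.08, -2.40, -2.09 and -2.47 on control arrays. Its groups overlapped, with a difference of 0.12 ± 0.20 (adjusted p = 0.867 by limma).

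Genes that accompany these regional factors were read from lists. Of 19 tested motile cilia genes 0 were called, with a median of 0.14. At an unadjusted p under 0.05, 3 were higher, where 3.94% of all genes were. The higher genes were Tekt1, a protein of ciliary microtubules, Dnah5, an axonemal dynein, and Ccdc39, an axonemal ruler protein. Their differences were 0.24 ± 0.081, 0.43 ± 0.15 and 0.48 ± 0.19 (adjusted p = 0.368, 0.387 and 0.420 by limma). Of 11 tested genes of the floor plate and ventral midline 0 were called, with a median of -0.03. At an unadjusted p under 0.05, 1 was higher and 2 were lower, where 3.94% and 7.1% of all genes were. Slit2, an axon guidance ligand, differed by 0.90 ± 0.21 (adjusted p = 0.243 by limma), and Nkx2-2, a ventral homeobox gene well above background on 5 arrays, differed by -1.59 ± 0.38 (adjusted p = 0.254 by limma). Shh itself, with a difference of -0.08 ± 0.20, was not called.

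Genes that accompany Foxb1 and Foxn4 were read in the same way. Of 11 tested hypothalamic and mammillary genes 2 were called higher and 0 lower, where 0.21% of all genes were called in either direction. At an unadjusted p under 0.05, 5 were higher, where 3.94% of all genes were, and the median difference was 0.30. This list was chosen with earlier results of these data known, so its counts are no independent support. Hmx2, a homeobox gene of the hypothalamus and the inner ear, averaged -0.55 ± 0.16 on the arrays labelled Otx2 cKO and -2.27 ± 0.27 on control arrays (SD, n = 3 and n = 4), a rise of 1.73 ± 0.17 (adjusted p = 0.0237 by limma). Its relative Hmx3 averaged 1.003 ± 0.39 on the arrays labelled Otx2 cKO and -1.12 ± 0.30 on control arrays, a rise of 2.12 ± 0.23 (adjusted p = 0.0298 by limma). Lhx5, a LIM homeobox gene of the septum and hypothalamus, differed by 0.59 ± 0.15 (adjusted p = 0.275 by limma). Foxb1 itself, a dim gene well above background on 5 arrays, differed by -0.55 ± 0.67 and by 0.11 within litter 2, so its direction is not settled. Of the 10 tested genes of the Foxn4 network 1 was called higher, a gene not reported here, and 0 lower, with a median difference of 0.02. At an unadjusted p under 0.05, 2 were higher, where 3.94% of all genes were. This list too was chosen with earlier results of these data known. Ptf1a, a helix-loop-helix gene of inhibitory neuron progenitors, averaged -2.35 ± 0.32 on the arrays labelled Otx2 cKO and -3.88 ± 0.39 on control arrays (1.53 ± 0.24, adjusted p = 0.0982 by limma), and Neurod4 differed by 0.37 ± 0.25 (adjusted p = 0.632 by limma). With single arrays left out, Hmx2 stayed called only without control 1 and Hmx3 in none of the 7 fits. The differences were then 1.59 to 1.82 for Hmx2 and 1.91 to 2.30 for Hmx3. Within litter 2 the differences were 1.53 for Hmx2 and 2.00 for Hmx3, neither called.

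Of the 8 genes known mainly from other tissues, Foxd4, the thyroid factor Foxe1, the inner ear and kidney factor Foxi1 and the regulatory T cell factor Foxp3 were not well above background on any array, and Foxl1, a gene of gut mesenchyme, had no named probe. Of 8 T cell markers 5 were well above background on at least 1 array, with a summed level of 0.617 to 0.716 on the arrays labelled Otx2 cKO and 0.517 to 0.573 on control arrays, and 0 of 3 tested were called. That sum was mainly the signal of 1 gene, the kinase Lck, which averaged -0.59 on the arrays labelled Otx2 cKO and -0.86 on control arrays. Cd3e averaged -4.73 and -5.21 on them, and Cd4 averaged -5.98 and -6.38. Lck differed by 0.28 ± 0.078 (adjusted p = 0.299 by limma). Foxh1, a partner of SMAD proteins in Nodal signalling, read 0.80, 1.34 and 1.13 on the arrays labelled Otx2 cKO, against 0.57, 0.85, 1.48 and 1.03 on control arrays (0.11 ± 0.23, adjusted p = 0.902 by limma). In the gene table Foxh1 overlaps Kifc2. The lens factor Foxe3 (0.05 ± 0.49) and the thymus factor Foxn1 (0.16 ± 0.39) were well above background on 6 arrays each, and their groups overlapped.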

How the data were processed

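Per the labels' protocols, the RNA of each embryo was amplified with Cy3-labelled nucleotide and put on its own 1-colour Agilent whole mouse genome array. The deposited scanner intensity was background-subtracted and detrended within each array by Agilent Feature Extraction 10.7.3.1, per the file headers, while the submitters' processing notes name version 10.5. A second table deposited by the authors holds log2 values of unstated scale and centring. Its column medians were 7.61 to 7.64, its columns shared a maximum of 18.8, and within arrays it followed the median spot signal (rank correlation at least 0.99996), so it served as an alternative.

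Control spots and spots marked as outliers (1.24% to 2.51% per array) were left out. Signals were averaged per probe, divided by the 75th percentile of the array, floored at a common log2 level of -7.45 and taken to log2. Probes were named through accessions in a RefSeq gene table of GRCm38.p6, a later build than that in the file headers, so it gave names, gene order and promoters only. This named 24844 of 41174 probes with 1 symbol and 0 with several, and left 16330 unnamed. A gene was read from its brightest probe and tested when well above background on at least 3 of 7 arrays, with at least 2 unmarked values per group. Of 17178 genes 13539 passed the filter and 13339 were tested.

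The fit was limma 3.58.1 in R 4.3.3 with group as the only term, and it was tested on simulated data. The members, classes and lists were chosen with earlier results of these data known. Values on every array are given for each Fox gene of the 2 anatomical classes that was well above background on at least 1 array, for 6 bright broadly expressed genes and for genes with an unadjusted p under 0.05; of each list the up to 3 genes with the smallest p, and any called, are named, except genes not reported here. List levels are sums of linear signals with marked spots kept. The alternatives were another background correction, normalization, centring, filter, probe rule and variance model, marked spots kept, slide, litter or replicate number as a block, single slides and litters, single arrays left out, and Foxd1 counted as neural. The planned background correction used the median spot signal, in place of the mean signal.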

Additional observations from a re-analysis of the deposited data

Results flagged for a closer look

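Among the 16 forkhead genes well above background and unmarked on all 4 control arrays, 2 had a control array far from the other 3. Foxk2 on control 1 lay above the other control arrays by 0.896 of the control range, and Foxd2 on control 3 lay above them by 0.902 of that range. Chance alone marks about 1 in 20 genes in this way. For Foxk2, Otx2 cKO 1, on the same slide as control 1, was also the highest of its label, and of Foxk2's other 2 probes 1 put control 1 highest among the control arrays and 1 put it lowest. These patterns were not tested further.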

How the results depend on the processing

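No forkhead gene was called under any alternative. The number of genes called over the whole table, 28, was 46 with normexp background correction, 43 with the authors' value table, 50 with a variance trend, 16 with slide as a block, and 13 with the meningeal marker covariate, which was chosen after seeing the data. It was 0 within slide 1, within slide 2, within litter 2 and with litter as a block, where 412, 1196, 844 and 864 genes had an unadjusted p under 0.05. Slide 1 held 1 array labelled Otx2 cKO, assumed to vary like its controls. Leaving out single arrays gave 0 to 25: 25 without Otx2 cKO 1, 3 without Otx2 cKO 2, 11 without control 1, and 0 without Otx2 cKO 3, control 2, control 3 or control 4, where 866, 1297, 1075 and 1463 genes had an unadjusted p under 0.05. Quantile normalization gave 7 higher and 17 lower genes, against 11 and 17. With the replicate number as a block, 0 genes and 0 forkhead genes were called, and 1498 genes had an unadjusted p under 0.05; same-numbered arrays did not deviate together (r = 0.19, -0.58 and 0.04), so the numbers do not pair the embryos. The median difference of the neural and broadly expressed genes, 0.02, was -0.081 with median centring, -0.11 within slide 2 and 0.11 within litter 2, both over the 11 of 13 genes that could be tested there, 0.014 with litter as a block over all 13, and -0.10 (without Otx2 cKO 1) to 0.035 with single arrays left out, over 11 to 13 genes. That of the meningeal, mesenchymal and vascular genes, 0.04, was -0.35 with litter as a block, -0.39 within litter 2 over 8 of the 9 genes, and -0.55 to 0.43 with single arrays left out, the lowest without Otx2 cKO 2 and the highest without Otx2 cKO 1. Of the 25 tested genes 18 turned sign under at least 1 alternative, and 7 under none: Foxj2, Foxk1, Foxm1, Foxn2, Foxo1, Foxf1 and Foxs1. The cause of these shifts was not tested. No spot was saturated, and 68.4% to 72.2% of spots were well above background. The groups of 3 and 4 arrays limit precision, and the SE of the tested forkhead genes ran up to 1.38.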

Other observations

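Markers of blood and of immune cells were present in every group. The 10 erythroid markers summed to 190 to 282 on the arrays labelled Otx2 cKO and 180 to 276 on control arrays, and all 10 had positive differences (median 0.18), with 0 called. The smallest p was that of Tspo2 (0.36 ± 0.16, adjusted p = 0.481 by limma). Of 14 microglia and macrophage markers 13 were well above background on at least 1 array, and they summed to 2.26 to 4.45 on the arrays labelled Otx2 cKO and 2.34 to 3.48 on control arrays. Of the 11 tested 0 were called, and the microglial gene Aif1 had the smallest p (0.24 ± 0.23, adjusted p = 0.758 by limma).

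Genes that read more than 2 log2 units above every other array on 1 array numbered 7, 14 and 15 on Otx2 cKO 1 to 3, and 7, 12, 11 and 13 on control 1 to 4. Foxf1 on Otx2 cKO 1, by 2.93, was the forkhead gene among them.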
